A study of Mus musculus with 6 samples.

Results

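The genes described here encode the protein subunits of the cytosolic ribosome. They were taken by symbol: every row of the count tables named Rpl or Rps with a number, with at most one closing letter a, x, l or y, together with Rplp0, Rplp1, Rplp2 and Rpsa, leaving out pseudogene rows marked -ps and rows with fewer than 10 reads summed over the libraries. Of 35275 rows, 81 had such a name and 80 met the minimum, 48 for proteins of the large (60S) subunit and 32 for proteins of the small (40S) subunit. The row left out was Rpl10l, a paralogue of Rpl10 known from the testis, with 0 reads in 6 libraries (a count of 0 allows at most 0.107 to 0.127 CPM, the count relative to the library total, in a library, for counting error only). Ribosomal protein rows with other names, such as Rps3a1, Fau and Gnb2l1 (Rack1), are not members.

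RNA was sequenced from 3 cell populations sorted by flow cytometry out of CT26 tumours, a mouse colon carcinoma line grown under the skin of BALB/C mice until tumours reached 1800 mm3. The gates combined Ly6G, a surface antigen of neutrophils, with binding of T1, an aptamer (a folded nucleic acid that attaches to cells). The populations were Ly6G-low T1-binding cells, described only as myeloid, and Ly6G-high T1-non-binding and Ly6G-high T1-binding cells, both described as polymorphonuclear (neutrophil-type) cells. Each population was collected from the same 2 mice, which gave 6 libraries, and no mouse without a tumour was included. Age of the mice, the other antigens gated and the purity of the sorts are not given in the sources used here. Each population therefore had 2 libraries, 1 per animal, and p-values rest on that spread alone.

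A ribosome is built from ribosomal RNA and a single copy of most of these proteins, so cells make them in a coordinated way, and growing or dividing cells make more. In mammals their messenger RNAs begin with a run of pyrimidines (the terminal oligopyrimidine or TOP motif), through which the growth-sensing kinase mTORC1 and the binding protein Larp1 control translation, while Myc raises their transcription. Mature neutrophils are known as cells with little rRNA and protein synthesis, whereas their bone marrow precursors divide and are rich in ribosomes.

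The windows printed next show the start of genes on which the results turn, in the direction of transcription, from 60 bases before the annotated start to 20 bases from it onwards (RefSeq, GRCm38.p6). Capitals mark a pyrimidine run of at least 8 bases that covers the annotated start and any match to CCGGAAG on either strand, a core bound by ETS-family factors such as GABP. The first 4 genes were chosen for their pyrimidine run. Rpl10, Rpl12, Rpl39l and Rpl3l have none at the annotated start, and are the genes with one of the smallest, some of the largest and the opposite differences in what follows.
Rps6, chr4:86857348-86857427, minus strand: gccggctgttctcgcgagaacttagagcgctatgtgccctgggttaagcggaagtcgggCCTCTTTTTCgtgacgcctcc
Rplp2, chr7:141447591-141447670, plus strand: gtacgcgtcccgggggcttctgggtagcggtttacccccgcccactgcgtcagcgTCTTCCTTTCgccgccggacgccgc
Rps27, chr3:90213629-90213708, minus strand: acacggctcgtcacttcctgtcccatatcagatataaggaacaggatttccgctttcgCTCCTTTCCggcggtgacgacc
Rps9, chr7:3703981-3704060, plus strand: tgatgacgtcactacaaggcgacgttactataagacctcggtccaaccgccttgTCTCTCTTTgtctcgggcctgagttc
Rpl10, chrX:74270756-74270835, plus strand: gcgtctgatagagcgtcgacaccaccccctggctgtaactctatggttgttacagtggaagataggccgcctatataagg
Rpl12, chr2:32961652-32961731, plus strand: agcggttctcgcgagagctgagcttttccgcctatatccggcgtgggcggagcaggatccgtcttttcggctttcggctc
Rpl39l, chr16:10170168-10170247, plus strand: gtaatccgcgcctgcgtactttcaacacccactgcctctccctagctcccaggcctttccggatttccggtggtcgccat
Rpl3l, chr17:24727766-24727845, plus strand: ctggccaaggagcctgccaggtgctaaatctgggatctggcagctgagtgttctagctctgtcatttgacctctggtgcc
Promoters (300 bases, 250 before the start and 50 from it) were in the table for 59 of the 80 members. A pyrimidine run of at least 8 over a start was present in 17 of them (28.8%) and in 4.54% of 26966 other genes. CCGGAAG was found on either strand in 25 members (42.4%) against 9.86% of other genes. AAGATGGC, a YY1-type element, was in 5 (8.48% against 3.18%), and the Myc-type E-box CACGTG was in 6 (10.2% against 8.09%). These matches describe letters in a window and depend on the annotated start, which may lie some bases from the start used in these cells.

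Counts in genes totalled 23595976 to 28045025 per library. The Ly6G-low libraries carried fewer leukocyte transcripts than the Ly6G-high ones: 10 pan-leukocyte and myeloid markers summed to 1562 and 2400 CPM of the library total (mouse 1, then mouse 2), against 6951 to 8784 in the Ly6G-high libraries, and all 10 were called lower in both comparisons. Ptprc, the common leukocyte antigen CD45, was at 91.8 and 160 CPM against 661 to 1061. Neutrophil markers summed to 694 and 419 in Ly6G-low libraries and to 12528 to 33653 in Ly6G-high libraries. Macrophage and monocyte markers summed to 2601 and 5057 CPM in Ly6G-low libraries, 3965 and 5293 in T1-non-binding and 9870 and 12394 in T1-binding Ly6G-high libraries, so the first 2 populations overlapped, and 17 of 17 were called lower against T1-binding and 7 of 17 against T1-non-binding cells. The sums of epithelial and CT26 tumour markers went the other way, at 801 and 770 against 174 to 310, as did those of fibroblast and endothelial markers (2058 and 1669 against 496 to 900) and 15 genes of dividing cells (2360 and 2301 against 596 to 1015). Single genes of the tumour and stromal lists went both ways. Of 9 tested tumour markers 4 were called higher and 2 lower against T1-binding cells, and 4 and 1 against T1-non-binding cells. Of 14 stromal markers 5 and 3, then 3 and 3, were called. Of all tested genes 18.8% were called higher and 24.3% lower in the first comparison, and 16.1% and 23.8% in the second. The 2 tumour and 3 stromal markers called lower, and the 3 stromal markers called higher, are near these shares. No gene of these lists was at 0 in every library, and the epithelial antigen Epcam was at most 1.10 CPM anywhere. The Ly6G-low libraries labelled myeloid thus had lower pan-leukocyte levels and higher sums of the tumour and stromal lists, and the part of these levels in the results that follow was not tested.

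Ribosomal protein genes took the largest share of reads in Ly6G-low cells. Their summed share of all counts was 4.44% in mouse 1 and 4.24% in mouse 2 of the Ly6G-low population, 1.09% and 2.07% in T1-non-binding and 1.30% and 2.27% in T1-binding Ly6G-high cells. The 95% Wilson interval of each share was narrow, from 1.090% to 1.099% in the lowest library, and covers counting error only, since reads had no molecular identifiers. Both Ly6G-low libraries stood above all 4 Ly6G-high libraries, and in both Ly6G-high populations mouse 1 was the lower animal. The mean share was 4.34% ± 0.142 (SD, n = 2) in Ly6G-low cells, 2.44 times that of Ly6G-high T1-binding cells (1.78% ± 0.689) and 2.75 times that of T1-non-binding cells (1.58% ± 0.688). An exact two-sided permutation test gave p = 0.333 for both, the smallest value that 2 against 2 libraries allow. Within mouse 1 the ratios were 3.43 and 4.06, and within mouse 2 they were 1.87 and 2.05. The Ly6G-high populations differed from each other 1.13-fold, less than the spread between their mice (exact permutation p = 0.667). In bulk RNA, fewer cells of a kind and less RNA per cell cannot be told apart. Both subunits had this pattern: 60S genes took 2.59% and 2.47% of counts in Ly6G-low cells and 0.623% to 1.29% in the Ly6G-high libraries, and 40S genes took 1.86% and 1.78% against 0.471% to 0.979%. Rows of ribosomal protein pseudogenes, 246 in all, held 0.0206% to 0.0671% of counts.

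**Figure D1:**
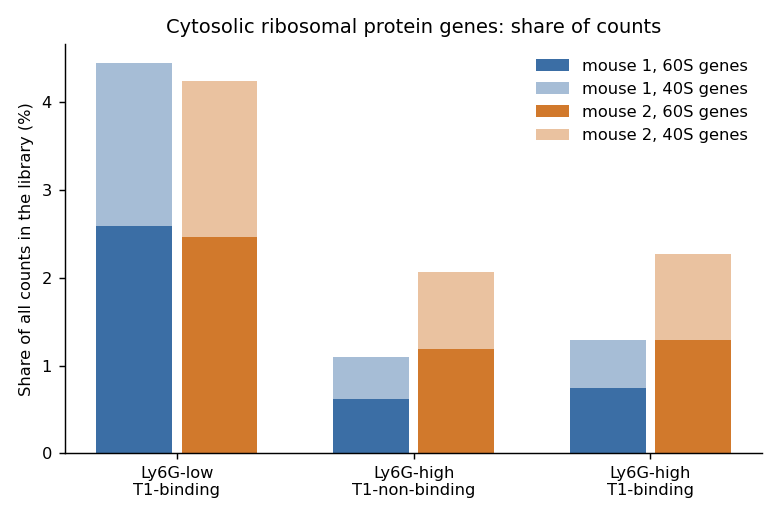
Share of all gene counts taken by the 80 ribosomal protein genes in each of 6 libraries (vertical axis, percent, from 0), by sorted population and mouse, with bars split into 60S (dark) and 40S (pale) genes. The Ly6G-low libraries stand at 4.44% and 4.24%, and the mouse 1 bars of both Ly6G-high populations, at 1.09% and 1.30%, are lower than the mouse 2 bars at 2.07% and 2.27%.

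Levels of single genes were next compared after TMM scaling, which sets most genes to no change on average and so takes out part of the difference in share. Scaling factors were 1.40 and 1.39 in Ly6G-low libraries, 0.653 and 0.917 in T1-non-binding and 0.858 and 1.00 in Ly6G-high T1-binding libraries. With library totals in place of these factors the median of all 13883 tested genes moved from 0.03 to 0.61 between Ly6G-low and Ly6G-high T1-binding cells and from 0.09 to 0.91 against T1-non-binding cells. The members' medians then stood at 1.30 and 1.49 (log2), so their distance from all genes stayed near that of the scaled values given next. Of the 80 members, 79 passed the filter on low counts. The exception was Rpl24, with 30 reads in 6 libraries and 3 to 8 in each. In GENCODE M21 it shares 47.0% of its exon bases with other annotated genes. The largest overlap is with the readthrough gene Gm28037, so the level of Rpl24 was not read.

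Between Ly6G-low and Ly6G-high cells that both bind T1, 77 of 79 members had a positive log2 fold change and 2 a negative one, with a median of 0.74 (60S genes 0.76, 40S genes 0.70) against 0.03 over all tested genes. In edgeR's quasi-likelihood test, 14 members were called higher in Ly6G-low cells at an adjusted p below 0.05, which is 14 of 79 where 18.8% of all tested genes were called higher, and 2 were called lower where 24.3% of all were. The share called higher is near that of all genes and the share called lower is below it. With mouse as a block over 6 libraries, 58 members were called higher, where 21.7% of all genes were. That block assumes a mouse difference common to all populations. The members' median mouse 2 minus mouse 1 difference was -0.07 in Ly6G-low, 0.46 in T1-non-binding and 0.59 in Ly6G-high T1-binding cells. Calls with this block, here and below, are therefore uncertain. In 77 members both Ly6G-low libraries lay above both Ly6G-high T1-binding libraries, against 41.6% of all genes. The difference was larger in mouse 1, with a median of 1.11, than in mouse 2, with 0.44, and all 77 genes were positive in each mouse.

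The stalk proteins, which recruit translation factors to the 60S subunit, showed the pattern. Rplp0, the stalk base, was at 1065 and 1052 CPM (TMM-scaled here and in what follows, mouse 1 then mouse 2) in Ly6G-low cells, 510 and 707 in T1-non-binding cells and 448 and 685 in T1-binding Ly6G-high cells. Values of the Ly6G-low libraries were close together and lay above the others, whereas the Ly6G-high libraries split by mouse. Its log2 fold change from Ly6G-high to Ly6G-low T1-binding cells was 0.90 ± 0.31 (SE, adjusted p = 0.0543 by edgeR) and missed the threshold. Rplp1 had values of 0.83 ± 0.32 (adjusted p = 0.0725) and Rplp2 of 0.82 ± 0.29 (0.0549). With mouse as a block over 6 libraries all 3 passed, with edgeR adjusted p of 0.0201 for Rplp0, 0.0261 for Rplp1 and 0.0206 for Rplp2. Rpl12, which joins the stalk base to rRNA, passed the test: it was at 320 and 307 CPM in Ly6G-low cells, 134 and 193 in T1-non-binding cells and 120 and 179 in Ly6G-high T1-binding cells, 2.10-fold higher in Ly6G-low cells (log2 1.07 ± 0.28, edgeR adjusted p = 0.0221).

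Rpl5 and Rpl11, which carry 5S rRNA and bind the p53 regulator Mdm2, had log2 fold changes of 0.73 ± 0.29 (edgeR adjusted p = 0.0779) and 0.56 ± 0.26 (0.124), and with the block Rpl5 passed (0.0315). Rpl5 was at 385 and 363 CPM in Ly6G-low cells, 175 and 265 in T1-non-binding cells and 185 and 267 in T1-binding Ly6G-high cells. For Rpl5, too, the Ly6G-low libraries were highest and the mouse 1 Ly6G-high libraries lowest. Other 60S proteins called higher were Rpl36a (0.98, adjusted p = 0.0383), Rpl21 (0.95, 0.0220), Rpl30 (0.83, 0.0356), Rpl17 (0.80, 0.0375) and Rpl26 (0.72, 0.0305). Rpl13a, which in human cells also silences inflammatory mRNAs after release from the ribosome, stood at 0.78 ± 0.28 (adjusted p = 0.0588), Rpl22 at 0.62 ± 0.26 (0.0904) and Rpl41, the smallest ribosomal protein, at 0.73 ± 0.30 (0.0868). With the block over 6 libraries these passed, with edgeR adjusted p of 0.0220, 0.0364 and 0.0401.

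Among 40S proteins, Rps21 was at 119 and 112 CPM in Ly6G-low cells, 49.7 and 71.6 in T1-non-binding cells and 39.5 and 69.1 in Ly6G-high T1-binding cells. It was 2.13-fold higher in Ly6G-low than in Ly6G-high T1-binding cells (log2 1.09 ± 0.30, edgeR adjusted p = 0.0264), and Rps20, in the head of the subunit, was 1.94-fold higher (0.96 ± 0.30, 0.0399). Rps6, the substrate of S6 kinase, was at 498 and 465, 266 and 353, and 247 and 342 CPM in the same order, a log2 fold change of 0.71 ± 0.26 (adjusted p = 0.0657). Rpsa (0.90), Rps19, mutated in Diamond-Blackfan anaemia (0.84), Rps4x (0.81), Rps3, at the mRNA entry channel (0.57), and Rps27a, made as a fusion with ubiquitin (0.48), had the same sign and did not pass, with edgeR adjusted p from 0.0672 to 0.175. With the block over 6 libraries Rps6 (adjusted p = 0.0342), Rpsa (0.0215), Rps19 (0.0257) and Rps4x (0.0256) passed. The 5 called members not named by the rule for named genes, and listed here after their values were seen, were Rps18 (0.93), Rps16 (0.90), Rpl37 (0.89), Rpl18 (0.84) and Rpl34 (0.83).

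Not all abundant members showed the difference to the same degree. Rpl10, which joins the 60S subunit late in its assembly, was at 677 and 662 CPM in Ly6G-low cells, 581 and 586 in T1-non-binding cells and 479 and 606 in Ly6G-high T1-binding cells, a log2 fold change of 0.30 ± 0.24 (edgeR adjusted p = 0.333). Rps9 was at 659 and 647, 570 and 622, and 422 and 589 CPM in the same order (0.37 ± 0.26, adjusted p = 0.276). Both had more CPM than Rps6 in every library. Rps29 had 0.42 ± 0.26 (0.220).

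**Figure D2:**
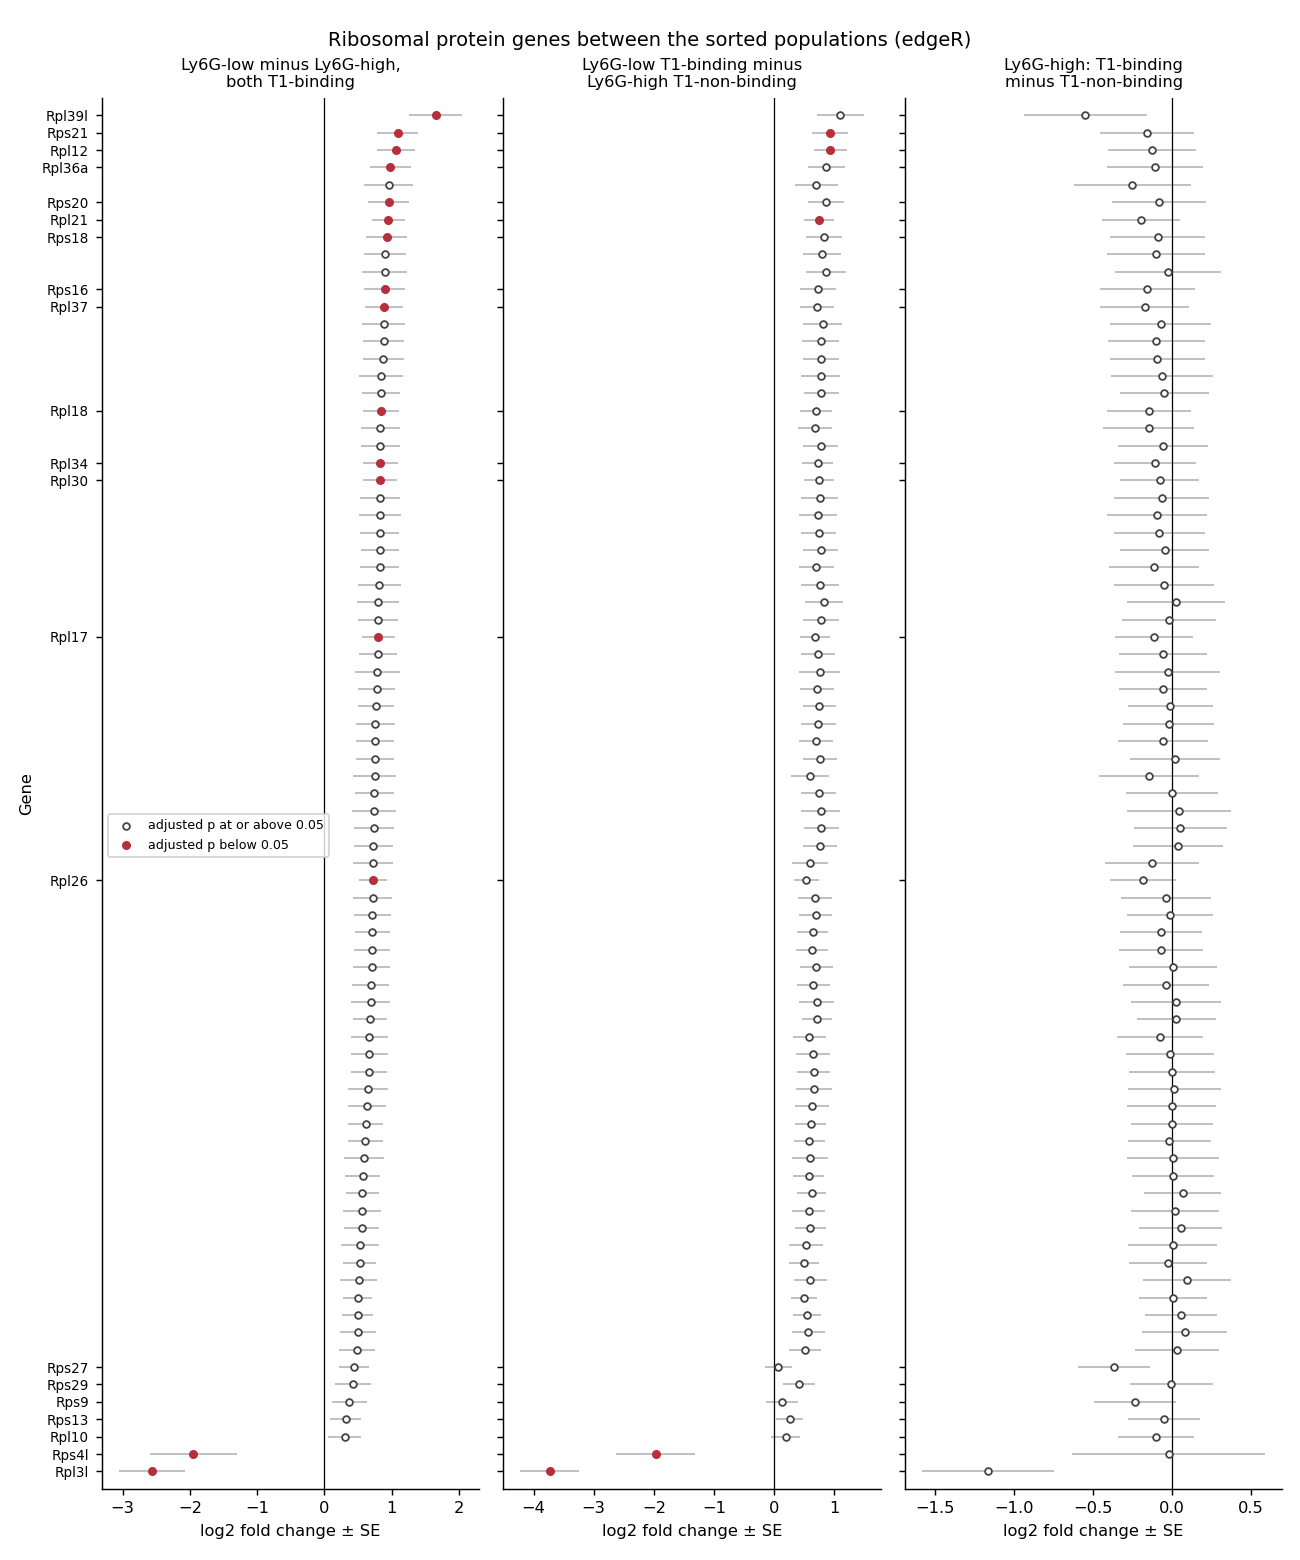
Log2 fold change ± SE (edgeR, horizontal axes, each panel with its own scale) of the 79 tested ribosomal protein genes (vertical axis) for 3 comparisons of the sorted populations, with red points for adjusted p below 0.05 and names beside the members called in a panel and those lowest in the left panel. In the left and middle panels 77 points lie right of 0 and Rps4l and Rpl3l lie left of it, while in the right panel the points scatter around 0 and none is red.

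Against Ly6G-high T1-non-binding cells, which share the same Ly6G-low libraries with the comparison above, the Ly6G-low cells again had 77 positive and 2 negative log2 fold changes, with a median of 0.71 against 0.09 over all genes (0.99 in mouse 1, 0.46 in mouse 2). Here 3 members were called higher, where 16.1% of all genes were, and 2 lower, where 23.8% were. The 3 were Rpl12 (log2 0.94 ± 0.28, edgeR adjusted p = 0.0366), Rps21 (0.93 ± 0.30, 0.0462) and Rpl21 (0.75 ± 0.25, 0.0482). With the block over the 4 libraries compared Rpl21 no longer passed (adjusted p = 0.0980). With the block over 6 libraries, members of the fixed set that passed here too were Rplp0 (0.0335), Rplp1 (0.0444), Rplp2 (0.0388), Rpl5 (0.0281), Rpsa (0.0265), Rps19 (0.0371), Rpl13a (0.0322), Rpl22 (0.0412), Rps4x (0.0253), Rpl3 (0.0406) and the paralogue Rpl39l described further on. Groups did not overlap for 77 members higher in Ly6G-low cells, against 43.6% of all genes. The smallest of these differences was that of Rps27, a zinc-finger protein of the 40S subunit, at 0.07 ± 0.23 (adjusted p = 0.808). Rps9 had 0.13 ± 0.26 (0.693) and Rpl10 0.20 ± 0.24 (0.519).

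How many members passed turned on single libraries and on the model, while the direction did not. With mouse as a block over 6 libraries, 51 members were called higher against T1-non-binding cells (20.5% of all genes were), beside the 58 against T1-binding cells given above. With the block and only the 4 libraries compared, 43 and 5 were called (19.2% and 11% of all genes). Calls higher were lost without either Ly6G-low library, or without the mouse 1 library of the Ly6G-high population compared. The share of all genes called higher fell there as well. Such fits leave 1 library in a population, so their medians are read instead. Medians in the 2 comparisons were 0.48 and 0.49 without that mouse 1 library. Without the mouse 2 library of the same population they were 0.99 and 0.96. Leaving out a T1-non-binding library, which enters the first comparison only through the spread, left the median there at 0.74. Leaving out the mouse 1 T1-binding Ly6G-high library left the median of the second at 0.71. With both mouse 1 Ly6G-high libraries left out, an alternative chosen after seeing the data, the medians were 0.47 and 0.49.

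Members with and without a pyrimidine run at an annotated start had similar medians. The 17 with such a run had a median log2 fold change of 0.71 from Ly6G-high to Ly6G-low T1-binding cells (range 0.37 to 0.93), and the 41 tested members without it had 0.73 (range -2.57 to 1.66). Rps9 and Rps27, with small differences, have a run in the windows printed above, and so do Rps6 and Rplp2, whose differences were larger. The 25 members with CCGGAAG and the 33 without it both had a median of 0.73. No test was made of these splits.

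Some paralogues had values unlike those of their parent genes. Rpl39l, a paralogue of the tunnel protein Rpl39 known mainly from the testis (chr16:10170226-10174911, plus strand, 831 exon bases, none shared with another gene), had the highest fold change of all members. It was at 90.3 and 75.7 CPM in Ly6G-low cells, 27.8 and 49.1 in T1-non-binding cells and 17.2 and 35.5 in T1-binding Ly6G-high cells. Its Ly6G-low values were highest and the 2 mice differed within both Ly6G-high populations. It was 3.15-fold higher in Ly6G-low than in Ly6G-high T1-binding cells (log2 1.66 ± 0.39, edgeR adjusted p = 0.0162), and 2.15-fold against T1-non-binding cells (1.11 ± 0.39, 0.0581), which did not pass. With mouse as a block over 6 libraries the latter passed (1.20, adjusted p = 0.0150). Without either Ly6G-low library, or without the mouse 1 T1-binding Ly6G-high library, the former did not (adjusted p = 0.0541 to 0.0750). Rpl39 itself had 0.67 ± 0.28 (0.0889, or 0.0484 with the block over 6 libraries) and 0.65 ± 0.28 (0.0969).

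Rpl3l, a paralogue of Rpl3 known from heart and skeletal muscle (chr17:24727820-24736143, plus strand), went against the other members. It had 6 and 7 reads in Ly6G-low libraries, 51 and 51 in T1-non-binding libraries and 25 and 31 in Ly6G-high T1-binding libraries, which is 0.182 and 0.202, 3.30 and 1.98, and 1.05 and 1.28 CPM. The 3 populations did not overlap, with T1-non-binding cells highest. Rpl3l was 5.92-fold lower in Ly6G-low than in Ly6G-high T1-binding cells (log2 -2.57 ± 0.49, edgeR adjusted p = 0.00794) and 13.3-fold lower than in T1-non-binding cells (-3.73 ± 0.49, 0.00246). Without the mouse 1 Ly6G-low library the first call was lost (-2.50, adjusted p = 0.0569). At 0.793 FPKM (the deposited unit, scaled by gene length and library total, median of 6 libraries) against 280 for Rpl3, it adds almost nothing to the sum. Rpl3 had log2 fold changes of 0.69 ± 0.29 (0.0901) and 0.71 ± 0.29 (0.0854), and the block over 6 libraries gave adjusted p of 0.0419 and 0.0406.

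Rps4l (chr6:148354656-148355598, plus strand), which GENCODE M21 lists as a transcribed processed pseudogene, was the other member called lower. It had 37 and 20 reads in Ly6G-low libraries, 81 and 41 in T1-non-binding libraries and 100 and 58 in Ly6G-high T1-binding libraries. In CPM these were 1.12 and 0.578, 5.24 and 1.59, and 4.19 and 2.39, so the Ly6G-low values were lowest and mouse 1 was the higher animal in each population. Its log2 fold changes were -1.95 ± 0.65 (edgeR adjusted p = 0.0473) and -1.97 ± 0.65 (0.0498), close to the threshold. Both calls were lost without either Ly6G-low library, without the mouse 1 library of the Ly6G-high population compared, with library totals and with limma-voom, with adjusted p of 0.0534 to 0.291. Rps4x, at a median of 432 FPKM against 2.10 for Rps4l, had 0.81 ± 0.31 and 0.83 ± 0.31 (0.0736 and 0.0701), and reads of so similar a copy may be assigned to either. Rps27l, a p53-inducible paralogue of Rps27, had 0.50 ± 0.23 and 0.55 ± 0.23 (0.116 and 0.0904), where Rps27 had 0.44 ± 0.23 and 0.07 ± 0.23.

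**Figure D3:**
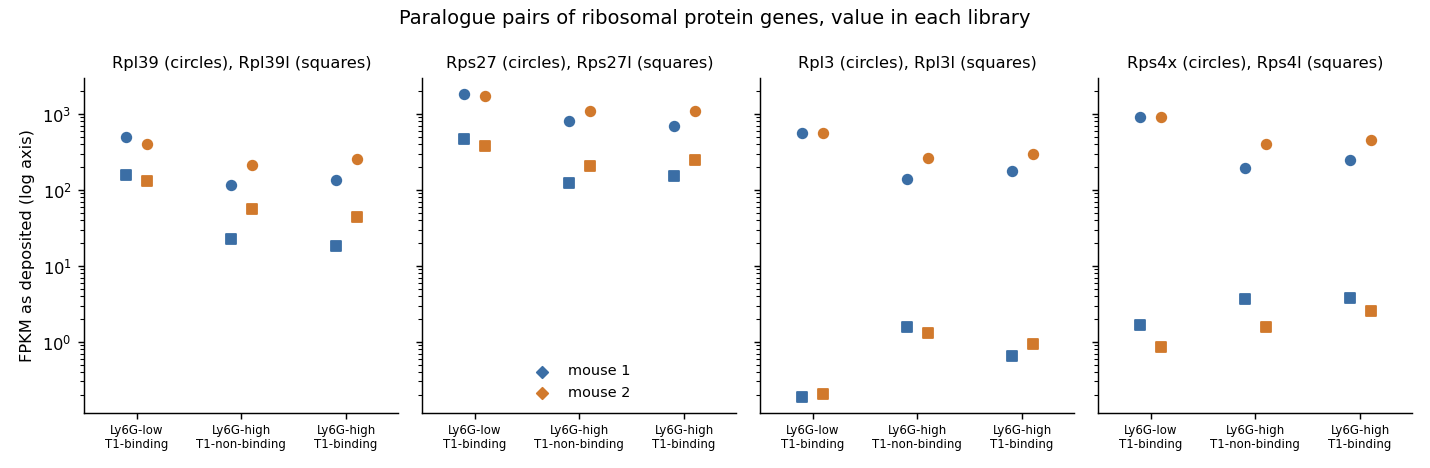
Deposited FPKM (vertical log axis) of 4 paralogue pairs in each library, by population and mouse, with circles for the parent gene and squares for the paralogue. Rpl39l falls from 156 and 130 FPKM in Ly6G-low cells to 18.3 to 55.9 in Ly6G-high cells, while Rpl3l is at 0.18 and 0.20 in Ly6G-low cells and 0.65 to 1.57 in Ly6G-high cells, on the opposite side to Rpl3.

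Among Ly6G-high cells, no member passed the test with T1 binding except in a model that pairs the 4 libraries by mouse, given below. No member of 79 was called between T1-binding and T1-non-binding cells by edgeR, where 0% of all genes were called in each direction. At an unadjusted p below 0.05 there was 1 member, against 11.7% of all genes, and DESeq2 and limma-voom also called none. The median log2 fold change was -0.05, equal to that of all genes (-0.05), and it was -0.14 in mouse 1 and 0.01 in mouse 2. It ranged from -0.34 to 0.23 when single libraries were left out, and it was 0.18 with library totals, where all genes were at 0.20. Leaving out any one of the 4 Ly6G-high libraries moved the median further than its distance from 0 in the full data.

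From T1-non-binding to T1-binding Ly6G-high cells, 33 of 79 members were lower in both mice and 4 were higher in both. The median of all tested genes was -0.077 in mouse 1 and 0.0017 in mouse 2. This count was not made over all genes, so it is not read as a trait of the members. Rps27, lower in both mice, was at 314 and 308 CPM in T1-non-binding cells and 206 and 276 in T1-binding cells. Its log2 fold change was -0.37 ± 0.23 (edgeR adjusted p = 0.538). Rpl3l had -1.17 ± 0.42 (0.395) and Rpl39l -0.55 ± 0.39 (0.589). Rps27 and Rpl3l were the 2 members whose groups did not overlap in that direction, against 19.1% of all genes. With mouse as a block and only these 4 libraries, a fit with 1 residual degree of freedom, 3 members were called lower in T1-binding cells, against 14.6% of all genes. They were Rpl39l (-0.53, adjusted p = 0.000905), Rps27 (-0.33, 0.00736) and Rpl3l (-1.08, 0.0335). With the block over all 6 libraries none was called. Rps9 (-0.24 ± 0.26, 0.744) and Rpl26 (-0.18 ± 0.21, 0.755) changed sign with library totals.

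The 2 mice differed in these genes within the Ly6G-high populations. From mouse 1 to mouse 2 the median log2 difference over members was -0.07 in Ly6G-low cells, with 12 of 79 members positive, 0.46 in T1-non-binding cells, with 76 positive, and 0.59 in Ly6G-high T1-binding cells, with 78 positive. Over all tested genes these medians were 0.01, -0.08 and 0.01. In share of counts, mouse 2 stood at 0.955, 1.89 and 1.75 times mouse 1 in the same order. These are differences between 2 animals, each sampled once per population, and they say nothing of animals in general.

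Over all 6 libraries, with a term for population, no member was called between the mice by edgeR (0% of all genes were called higher in mouse 2 and 0.0072% lower), and 2 members had an unadjusted p below 0.05, against 9.16% of all genes. The median was 0.33, and the smallest adjusted p was 0.350, for Rps4l (-1.17 ± 0.30). In the 4 Ly6G-high libraries alone, 77 of 79 members were called higher in mouse 2, against 15.7% of all genes, and 1 was called lower, against 19.9%, with a median of 0.60 (all genes 0.02). The libraries of a mouse share that animal and the fit had 1 residual degree of freedom, so these p-values describe the libraries and are too small for a statement on mice. In 76 members both mouse 2 libraries lay above both mouse 1 libraries, against 24.9% of all genes.

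The members highest in mouse 2 relative to mouse 1 in Ly6G-high cells were Rpl39l (0.99 ± 0.12), Rpl23a (0.91 ± 0.21), Rpl29 (0.77 ± 0.19) and Rpl36a (0.74 ± 0.10). Rpl23a was at 5.44 and 8.94 CPM in T1-non-binding cells and 4.11 and 8.07 in T1-binding cells (mouse 1, then mouse 2), with both Ly6G-low libraries higher than these. It shares 62.3% of its exon bases with other annotated genes, with the largest overlap for Tlcd1 on the opposite strand, so its count is uncertain. Among members of the fixed set, values were 0.60 ± 0.09 for Rplp0, 0.62 ± 0.09 for Rpl5, 0.50 ± 0.09 for Rps6 and 0.68 ± 0.09 for Rpsa (edgeR adjusted p from 4.64e-07 to 4.37e-05). At the low end were Rps9 (0.36 ± 0.09, adjusted p = 0.00263), Rps27 (0.26 ± 0.09, 0.0333) and Rpl10 (0.23 ± 0.09, 0.0497). Rps4l was the member called lower in mouse 2 (-1.18 ± 0.30, 0.00216), and Rpl3l had -0.22 ± 0.39 (0.696).

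**Figure D4:**
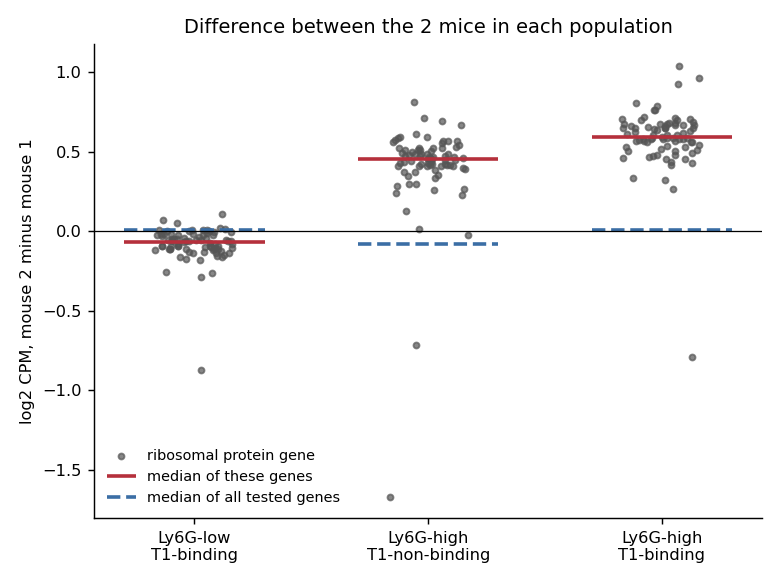
Log2 difference in TMM-scaled CPM between mouse 2 and mouse 1 (vertical axis) for each of 79 ribosomal protein genes (points, spread sideways at random) in the 3 populations, with the members' median (red line) and that of all tested genes (blue dashed line). The members' medians are -0.07, 0.46 and 0.59 from left to right, and the medians of all genes lie between -0.08 and 0.01.

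In a model with a separate mouse term for Ly6G-low and Ly6G-high cells, added after seeing the data, 52 of 79 members had a larger mouse difference in Ly6G-high than in Ly6G-low cells and 0 a smaller one, where 4.48% and 14.1% of all genes did (edgeR, 1 residual degree of freedom). The median of this difference was 0.61, and it was highest for Rpl39l, at 1.19 ± 0.21 (adjusted p = 1.55e-06). The Ly6G-low term rests on 1 library per mouse, so the SE and p-values of this model hold no spread of Ly6G-low cells. Other values moved with this difference. In the same model all 17 macrophage and monocyte markers (median -0.91) and all 10 pan-leukocyte markers (-1.04) were called lower, as were 5 of 8 B cell markers (-1.48). In Ly6G-low cells macrophage and monocyte markers went from 2601 CPM of the library total in mouse 1 to 5057 in mouse 2 and pan-leukocyte markers from 1562 to 2400, so the Ly6G-low libraries differed in these levels as well. Of 9 tumour markers 4 were called higher and 1 lower, and of 14 stromal markers 5 and 1. In the Ly6G-high libraries of mouse 1 the genes of dividing cells summed to 596 and 652 CPM of the library total, against 1015 and 997 in mouse 2, while in Ly6G-low libraries they summed to 2360 and 2301. Epithelial and CT26 tumour markers were at 174 and 192 in mouse 1 and 310 and 261 in mouse 2, led by the keratin gene Krt8 at 17.4 and 13.9 against 54.1 and 44.8. Fibroblast and endothelial markers were at 541 and 496 against 900 and 834, and neutrophil markers at 33653 and 16864 against 29141 and 12528. Among 1278 other tested genes shorter than 1000 bases, the median mouse difference was -0.07 in Ly6G-low, 0.06 in T1-non-binding and 0.23 in Ly6G-high T1-binding cells, and among those of 4000 bases or more it was 0.11, -0.22 and -0.12. The part of these values in the result was not tested.

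Other genes of the translation machinery were read beside the members. Of 20 TOP transcripts that are not members, such as elongation factors, 6 were called higher and 1 lower in Ly6G-low than in Ly6G-high T1-binding cells, with a median log2 fold change of 0.68, and 4 and 1 against T1-non-binding cells, with 0.64. Of all tested genes 18.8% were called higher and 24.3% lower in the first comparison and 16.1% and 23.8% in the second, so the counts higher for these TOP transcripts are read against that background and the second is near it. Npm1, a nucleolar chaperone of ribosome assembly, was at 706 and 730 CPM in Ly6G-low cells and 329 and 432 in Ly6G-high T1-binding cells (0.92 ± 0.27, edgeR adjusted p = 0.0320). Gas5, a TOP transcript that hosts small nucleolar RNAs, had 1.23 ± 0.27 (0.0121). Of 17 chaperone and export genes for ribosomal proteins and subunits, 8 were called higher and 0 lower against Ly6G-high T1-binding cells (median 0.73), and 11 and 0 against T1-non-binding cells (0.69). Ipo7, an importin that carries ribosomal proteins into the nucleus, had 1.22 ± 0.20 (0.00492) and 1.09 ± 0.20 (0.00745).

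Initiation factors and mitochondrial ribosomal proteins had smaller medians. Of 31 initiation factors, 9 were called higher and 2 lower against Ly6G-high T1-binding cells (median 0.38), and 10 and 4 against T1-non-binding cells (0.41). Of 76 genes for mitochondrial ribosomal proteins, 15 were called higher and 1 lower (0.39), and 21 and 2 (0.50), of which the 15 are near the 18.8% of all genes. Of 25 genes of the mTORC1 pathway, 2 were called higher and 7 lower in each comparison, and the 7 are near the 24.3% and 23.8% of all genes called lower. Rragd, a GTPase that links amino acids to mTORC1, was at 1.00 and 0.694 CPM in Ly6G-low cells and 8.69 to 53.8 in Ly6G-high cells (log2 -3.90 ± 0.55, edgeR adjusted p = 0.00373, against T1-binding cells). Between the Ly6G-high populations no gene of these lists was called.

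Genes of the Myc network did not share a sign. Of 5 tested, 1 was called higher and 2 lower against Ly6G-high T1-binding cells, and 1 and 3 against T1-non-binding cells. Of all genes 18.8% and 24.3%, then 16.1% and 23.8%, were called. Max, the partner of Myc, was lower in Ly6G-low than in T1-non-binding cells (log2 -1.68 ± 0.34, edgeR adjusted p = 0.0111). Its CPM were 28.3 and 21.9 in Ly6G-low, 106 and 55.8 in T1-non-binding and 20.5 and 28.7 in Ly6G-high T1-binding cells. Myc was at 101 and 121 CPM in Ly6G-low cells, 52.2 and 71.2 in T1-non-binding cells and 48.7 and 60.6 in Ly6G-high T1-binding cells, with log2 fold changes of 1.03 ± 0.22 (edgeR adjusted p = 0.0121) and 0.85 ± 0.22 (0.0255). Mxd1, which competes with Myc for its partner Max and represses its targets, was at 90.4 and 104 CPM in Ly6G-low cells and at 1318 to 4656 in Ly6G-high cells, with -4.22 ± 0.48 (0.00316) and -5.21 ± 0.50 (0.00122). Within Ly6G-high cells Myc was higher in mouse 2 (0.44 ± 0.11, adjusted p = 0.00130) and Mxd1 lower (-0.78 ± 0.10, 7.25e-08), and 16 of 20 other TOP transcripts and 43 of 76 mitochondrial ribosomal protein genes were called higher there, where 15.7% of all genes were. The caution on libraries that share an animal holds for these as well.

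**Figure D5:**
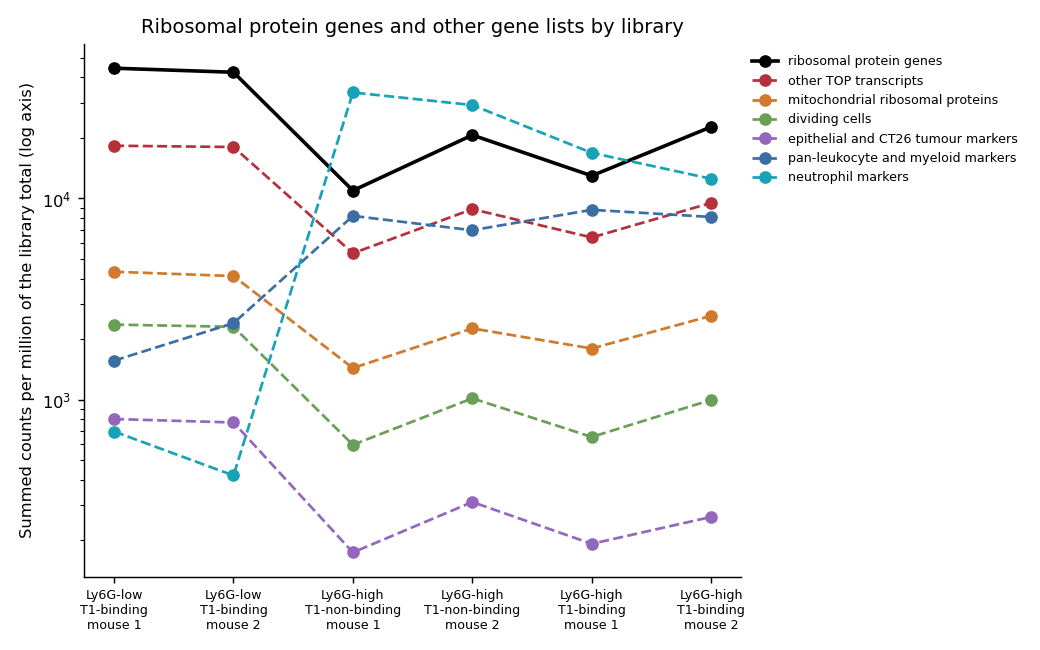
Summed CPM of the library total (vertical log axis) of the ribosomal protein genes (black) and of 6 other gene lists in each of the 6 libraries, with lines only to guide the eye. Other TOP transcripts (5340 to 18292), mitochondrial ribosomal proteins (1435 to 4323), dividing-cell genes and tumour markers are highest in the Ly6G-low libraries and lowest in the Ly6G-high libraries of mouse 1, whereas neutrophil and pan-leukocyte markers are lowest in Ly6G-low cells.

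Per length, in deposited FPKM, members differed widely, but these values depend on the gene length implied by the counts and FPKM. Rps27 and Rps20 had similar summed reads (46438 and 45215). Their implied lengths were 255 and 3706 bases and their medians 1097 and 64.7 FPKM. The order of members in this unit is therefore not read as an order of transcription. Among the highest medians over 6 libraries were those of Rps27 (1097 FPKM), Rpl32 (923) and Rps29 (712). Rps27 was at 1856 and 1709 FPKM in Ly6G-low libraries, 803 and 1109 in T1-non-binding and 694 and 1085 in Ly6G-high T1-binding libraries. In this unit, which is not TMM-scaled, the Ly6G-low libraries were highest and the mouse 1 Ly6G-high libraries lowest. With TMM scaling Rps27 was at 339.3 and 314.3 CPM in Ly6G-low and 313.8 and 308.3 in T1-non-binding libraries. The Ly6G-low libraries were then highest by a small margin, and mouse 1 was not the lower animal in T1-non-binding cells. The lowest were Rpl29 (14.9), Rpl23a (13.9), Rps4l (2.10), Rpl3l (0.793) and Rpl24 (0.256). Rpl35, at 33.3 FPKM, shares 66.2% of its exon bases with other annotated genes, with the largest overlap for Wdr38 on the opposite strand. Of the 80 members, 57 have pseudogene rows of the same name in the tables and 15 share over 10% of their exon bases with another annotated gene. Whether libraries were stranded, and how reads that fit several places were counted, is not given in the sources used here, so low levels of such members cannot be read as low transcription.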

How the data were processed

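Each of the 6 libraries came as a table of 35275 genes with read counts and FPKM. The authors deposited whole read counts, not normalized. The FPKM values were made by the authors from the same counts, since dividing one by the other gave a constant length for each gene (21245 genes, relative deviation at most 9.28e-12). TopHat, STAR 2.5, HTSeq 0.6.1 and build mm10 are named in the submitters' processing notes without a role or order. Annotation release, strandedness and filters are not given in the sources used here. Per the labels' protocols, the RNeasy Micro kit served for RNA isolation.

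Genes passing filterByExpr (13883) were fitted with edgeR 4.0.16 in R 4.3.3 (TMM factors, robust quasi-likelihood F test) on 6 libraries with 3 residual degrees of freedom, without a mouse term. Benjamini-Hochberg adjustment ran over all tested genes, with a threshold of 0.05, and only the members were read out. CPM are TMM-scaled unless given relative to the library total, and log2 differences within a mouse or population used a prior count of 2. The mouse comparison added a population term. The scripts were tested on simulated data with known changes. The members, gene lists and rules were chosen with earlier results of these data known.

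Mouse numbers in the source labels pair libraries by animal. Deviations from the group mean correlated across 13883 genes at 0.514 between the Ly6G-high populations, whereas the Ly6G-low population correlated at -0.0431 with T1-non-binding and -0.00583 with T1-binding Ly6G-high cells. Values from models with the mouse as a block are given beside the results whose call they change. A block over all 6 libraries assumes a mouse difference common to the populations, which these correlations do not show for Ly6G-low cells. No replicate pair agreed within sampling noise (chi-square over its degrees of freedom 22.9 to 90.1), so each library counts as 1 sample.

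Named genes were a fixed set (stalk, 5S-binding, well-known 40S and 60S members and paralogue pairs), the 5 most positive and 5 most negative called members or the 5 smallest p, called members against the main direction, the 5 highest and lowest median FPKM, members that failed the filter, and up to 2 called genes per direction of each translation list. Some genes this rule names are not reported here. Alternatives were RLE, upper-quartile, total-count and member-free TMM scaling, 2 other filters, DESeq2 1.42.0, limma-voom (limma 3.58.1), the compared groups alone, mouse as a block and each library left out. Coordinates and gene types came from GENCODE M21 (GRCm38), promoters from the RefSeq table of GRCm38.p6. Shares and figures were made in Python 3.11.15 (matplotlib 3.10.9).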

Additional observations from a re-analysis of the deposited data

Results flagged for a closer look

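In these libraries the difference between the mice was not the same in the Ly6G-low and Ly6G-high populations. In the edgeR model with a separate mouse term for each, 52 of 79 members had a larger mouse 2 minus mouse 1 difference in Ly6G-high cells at an adjusted p below 0.05, where 4.48% of all genes did and 14.1% had a smaller one, with a median over members of 0.614 (log2). DESeq2 called 38 (1.05% of all genes), limma-voom 57 (4.98%), and upper-quartile factors and library totals 76 and 77 (12.2% and 16.2%). By smallest p, the leading members were Rpl39l at 1.19, Rpl39 at 0.815, Rps21 at 0.76, Rplp1 at 0.771 and Rpl36, a 60S protein, at 0.741. For Rpl39l the mouse difference was -0.25 in Ly6G-low, 0.82 in T1-non-binding and 1.04 in Ly6G-high T1-binding cells. Each arm rests on libraries of the same 2 animals, and the model was added after seeing the data. The Ly6G-low arm is 1 library against 1, so the calls hold no measure of spread in Ly6G-low cells. In the same model 17 of 17 macrophage and monocyte markers and 10 of 10 pan-leukocyte markers were called lower. Of dividing-cell genes 5 of 15 were called higher and 0 lower, of tumour markers 4 of 9 and 1 (Cdh1), and of stromal markers 5 of 14 and 1 (Pecam1). The part of these levels in the difference was not tested.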

How the results depend on the processing

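Directions held more widely than calls. With library totals, 77 members were called higher in Ly6G-low cells in both comparisons and 1 lower, the medians were 1.296 and 1.493, the median between the Ly6G-high populations was 0.1775, with Rps9 at 0.01684 and Rpl26 at 0.05401 in place of negative values, and the median of the mouse difference between Ly6G-high and Ly6G-low cells was 0.9811. Calls higher in Ly6G-low than in Ly6G-high T1-binding cells (14) became 53 with upper-quartile factors, 39 without a filter, 46 with DESeq2, 22 with limma-voom, 44 with the compared groups alone, 58 and 43 with mouse as a replicate block over 6 and 4 libraries, and 45 without both mouse 1 Ly6G-high libraries. Calls against T1-non-binding cells (3) became 1 with RLE factors or at least 50 counts in 2 libraries, 54 with upper-quartile factors, 34 without a filter, 26 with DESeq2, 5 with limma-voom, 51 and 5 with the block, and 41 without both mouse 1 libraries. Over these settings 12.5% to 37.5% and 10.3% to 52.3% of all genes were called higher in the 2 comparisons. The 2 calls lower became 1 with limma-voom and without both mouse 1 libraries in both comparisons, and 1 with at least 50 counts against T1-non-binding cells. Between the Ly6G-high populations the block over 4 libraries called 3 lower. The block changed no other count by more than 1.5 times. Between mice, the Ly6G-high libraries alone gave 77 higher and 1 lower, by construction without the Ly6G-low libraries.

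With single libraries left out, calls higher ranged from 0 to 44 and lower from 0 to 2 against T1-binding cells (median 0.4777 to 0.9888), from 0 to 37 and from 1 to 2 against T1-non-binding cells (0.4927 to 0.9601), and from 0 to 76 and from 0 to 1 between mice (0.1871 to 0.5947). Between the Ly6G-high populations the median ranged from -0.3404 to 0.2286 with 0 calls, and Rpl26 from -0.3692 to 0.01588. Between mice, members were called in these fits only without a Ly6G-low library, which leaves the mouse term to the Ly6G-high libraries. The share of all genes called higher between mice rose there too. In both comparisons with Ly6G-low cells, that share fell in every fit that called no member higher. In fits that called more members higher than the full data, it stayed near its full-data value or fell. The ranges of calls are therefore not read as a trait of the members alone. No library was left out of the model with separate mouse terms, since none of its residual degrees of freedom would remain.

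The mean share was 4.616% in Ly6G-low cells with other cytosolic ribosomal protein rows added. Without the 100 highest other rows in the total, it was 5.234%, 2.392% and 2.533% for Ly6G-low, then T1-non-binding, then T1-binding Ly6G-high cells. The causes of these changes were not tested where the setting itself does not give them. Depth limits Rpl3l, Rps4l and Rpl24, and 2 animals limit every p-value.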
